A study of Arabidopsis thaliana with 6 samples.

Results

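Genes of the wall-loosening and cellulose enzyme families were compared between whole rosettes of wild-type Arabidopsis thaliana and of 35S:PCO1 plants kept in air. The families are expansins, xyloglucan endotransglucosylase/hydrolases (XTH), endoglucanases of glycosyl hydrolase family 9 (GH9), cellulose synthases (CESA) and cellulose synthase-like proteins (CSL). A gene was a member if a probe set was paired with it alone in the array's annotation and its symbol carried one of these family names. This gave 50 genes of 13350 with a probe set of their own, and each of the 50 had exactly 1 such probe set. They comprise 10 alpha-expansins (EXPA), 4 beta-expansins (EXPB), 4 expansin-like genes (EXLA and EXLB), 9 XTH, 15 GH9 and 8 CSL genes. No CESA gene was a member. The RefSeq gene table holds 122 genes with such symbols, so 72 of them, including 7 with a CESA symbol, were not members. Some of these share a probe set with another gene of the families, and those 4 probe sets are given at the end. Others may be measured by one of the 8730 probe sets for which the annotation names no gene.

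A growing leaf cell is held by cellulose fibres tethered by xyloglucan and other polysaccharides. Expansins loosen this network without cutting it, XTH enzymes cut xyloglucan and can join the ends to other chains, and GH9 enzymes hydrolyse beta-1,4-glucans. CSL proteins make the backbones of matrix polysaccharides, such as xyloglucan (CSLC) and mannan (CSLA).

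Wild type and 35S:PCO1 had 3 replicates apiece, with 1 Affymetrix array for every sample, and all plants grew in soil with 8 h of light at 22 °C and 16 h of darkness at 18 °C. Rosettes were harvested 2 h after the lights came on, at an age given as 4 weeks in one label and 5 weeks in another. The 35S:PCO1 plants overexpress plant cysteine oxidase 1, which uses oxygen to mark group VII ethylene response factors for degradation, from the 35S promoter of a plant virus, active in nearly all tissues. The titles of these 3 samples name 35S:CDO1 instead, while their genotype and description labels name PCO1, which is followed here. The PCO1 transcript was not checked: the annotation used here pairs no probe set with it by symbol or locus, though a probe set unnamed there may measure it. The name of the transgene thus rests on the labels. The labels do not say whether they are 1 line or several, nor whether replicates were single plants or pools, so the p-values rest on a replicate spread that could be technical.

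In a whole rosette, fewer cells of a type and less RNA per cell cannot be told apart. A marker was counted as measured only where the annotation pairs a probe set with it alone. Markers not counted may still be measured by a probe set unnamed there. Of the 6 leaf markers written 3 were measured, all of photosynthesis. RCA and LHCB4.1 had signals of 13.4 to 13.6 on every array and differed by 0.04 and -0.04. LHCB4.2 was at 12.22, 12.36 and 12.42 in wild type and 12.35, 12.29 and 12.18 in 35S:PCO1 (-0.06). None of these 3 passed (limma adjusted p from 0.784 to 0.808). Of 3 root markers 1 was measured, PYK10, a beta-glucosidase of root endoplasmic reticulum bodies, with log2 signals of 8.38, 8.19 and 7.68 for the wild type (replicates 1, 2 and 3) and 7.55, 7.74 and 7.60 for 35S:PCO1 (-0.45, limma adjusted p = 0.233). PYK10 did pass without wild-type replicate 3 (-0.65, limma adjusted p = 0.0180) and with array weights (-0.55, limma adjusted p = 0.00721). It did not pass when any other array was left out (limma adjusted p from 0.278 to 0.562). Of 7 markers of dividing cells 1 was measured, the mitotic kinase gene AUR1, at 6.54, 6.37 and 6.65 in wild type and 6.25, 6.38 and 6.36 in 35S:PCO1 (-0.19, limma adjusted p = 0.326). The control probe set for 25S ribosomal RNA gave a mean log2 signal of 8.67 ± 0.20 for the wild type and 7.41 ± 0.12 for 35S:PCO1 (SD over 3 arrays in both). The arrays correlated at 0.9957 or more within a group, and wild-type replicate 1 correlated at 0.9974 with a 35S:PCO1 array.

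In 35S:PCO1 rosettes a single gene passed as lower (limma adjusted p under 0.05) in each of 3 groups: the endoglucanases, the alpha-expansins and the beta-expansins. The endoglucanase gene GH9B13 was 3.09-fold lower, the alpha-expansin gene EXPA4 1.88-fold lower and the beta-expansin gene EXPB3 1.65-fold lower. No member passed as higher in this test. Of the 50 members 3 passed limma's test at an adjusted p under 0.05 (0 higher, 3 lower), which is 6% of them, while 0.84% of the 22746 tested probe sets passed in either direction, 0.207% as higher and 0.633% as lower. The remaining 47 members did not pass. The median difference of the members was -0.0075 on the log2 scale and that of all tested probe sets 0.0036, and 23 members (46%) lay above 0 and 27 below, beside 51.6% of tested probe sets above 0.

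**Figure D1:**
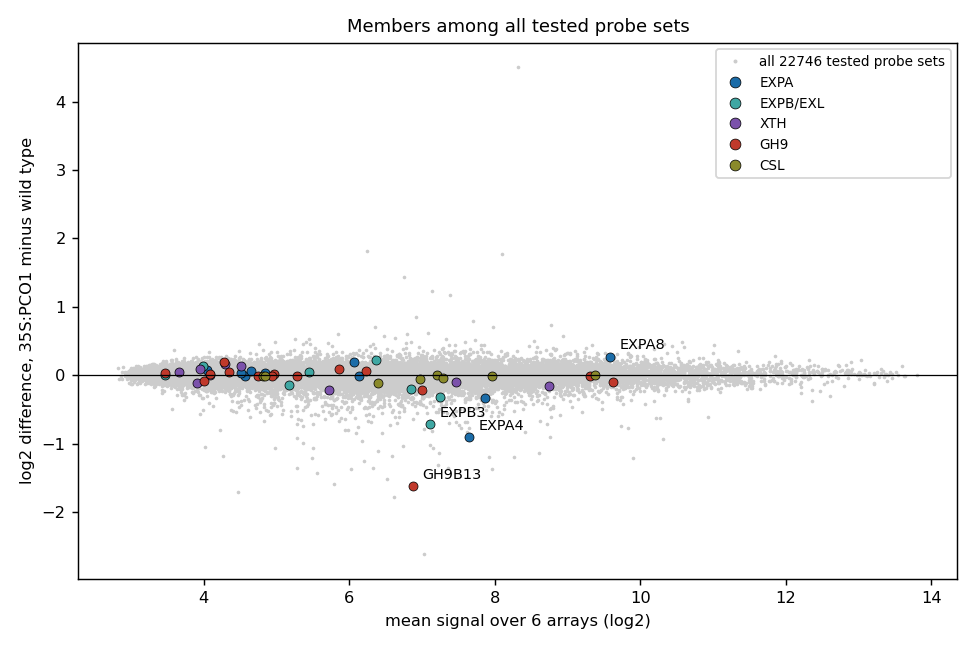
Each grey point is 1 of the 22746 tested probe sets, with its mean signal over the 6 arrays on the x axis and the log2 difference of 35S:PCO1 minus wild type on the y axis; coloured points are the 50 members by family. GH9B13 (-1.63), EXPA4 (-0.91) and EXPB3 (-0.72) lie below nearly all grey points and rank 4, 34 and 55 from the lowest. Most members lie within the dense grey band.

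GH9B13 (AT4G02290) encodes an endoglucanase of class B, whose members lack the carbohydrate-binding module of class C. Its log2 signal was 7.41, 7.73 and 7.93 in the wild type (replicates 1, 2 and 3) and 5.94, 6.51 and 5.74 for the 35S:PCO1 arrays. The lowest wild-type array stood 0.90 above the highest 35S:PCO1 array, a gap wider than the wild-type range of 0.53. The mean fell from 7.69 ± 0.27 to 6.06 ± 0.40 (SD, n = 3 each), a difference of -1.63 (SE 0.19, 95% interval -2.05 to -1.20, limma adjusted p = 0.0116). By size this fall ranked 4 among the 22746 probe sets. The spread within 35S:PCO1, where replicate 2 was the highest, was also larger than that of 99.9% of probe sets.

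EXPA4 (AT2G39700) encodes an alpha-expansin, a protein that loosens walls at acid pH. Its signal was 7.94, 8.08 and 8.31 in wild type and 7.28, 7.28 and 7.05 in 35S:PCO1. The groups were 0.67 apart at their nearest arrays, against a range of 0.36 within wild type. The difference was -0.91 (SE 0.10, 95% interval -1.13 to -0.69, limma adjusted p = 0.0116).

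EXPB3 (AT4G28250) belongs to the beta-expansins, whose best-studied members are grass pollen allergens that loosen grass walls. Its signal was 7.35, 7.45 and 7.64 in wild type and 6.71, 6.81 and 6.75 in 35S:PCO1. The 35S:PCO1 arrays lay within 0.10 of each other, and the nearest wild-type array was 0.53 higher. The difference was -0.72 (SE 0.08, 95% interval -0.89 to -0.55, limma adjusted p = 0.0116).

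In wild type all 3 of these genes were lowest in replicate 1 and highest in replicate 3. That order was seen for 22 of the 50 members (44%) and for 27.3% of all tested probe sets. The 25S ribosomal RNA control ran the other way among the wild-type arrays, at 8.88, 8.66 and 8.48, and was lower in 35S:PCO1 at 7.39, 7.54 and 7.30, and its part in these results was not tested. The mean 3' minus 5' signal of the actin, GAPDH and ubiquitin controls, a measure of RNA integrity, also declined from wild-type replicate 1 to 3. It was 0.761, 0.688 and 0.581 in wild type and 0.579, 0.628 and 0.547 in 35S:PCO1. This 3' minus 5' signal averaged 0.677 ± 0.091 for wild-type and 0.585 ± 0.041 for 35S:PCO1 arrays (SD, n = 3 each), and its part was not tested either. The 3 calls were lost when any one of 3 arrays, wild-type replicate 2 and 35S:PCO1 replicates 1 and 3, was left out (limma adjusted p from 0.0663 to 0.0949), where 5 of all probe sets passed in each case. The differences remained between -1.85 and -1.47 for GH9B13, -0.99 and -0.81 for EXPA4 and -0.78 and -0.64 for EXPB3 when each array was left out in turn. An ordinary t statistic gave 0 calls among the members (8 with an unadjusted p under 0.05), and array weights gave 8 (4 higher, 4 lower).

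**Figure D2:**
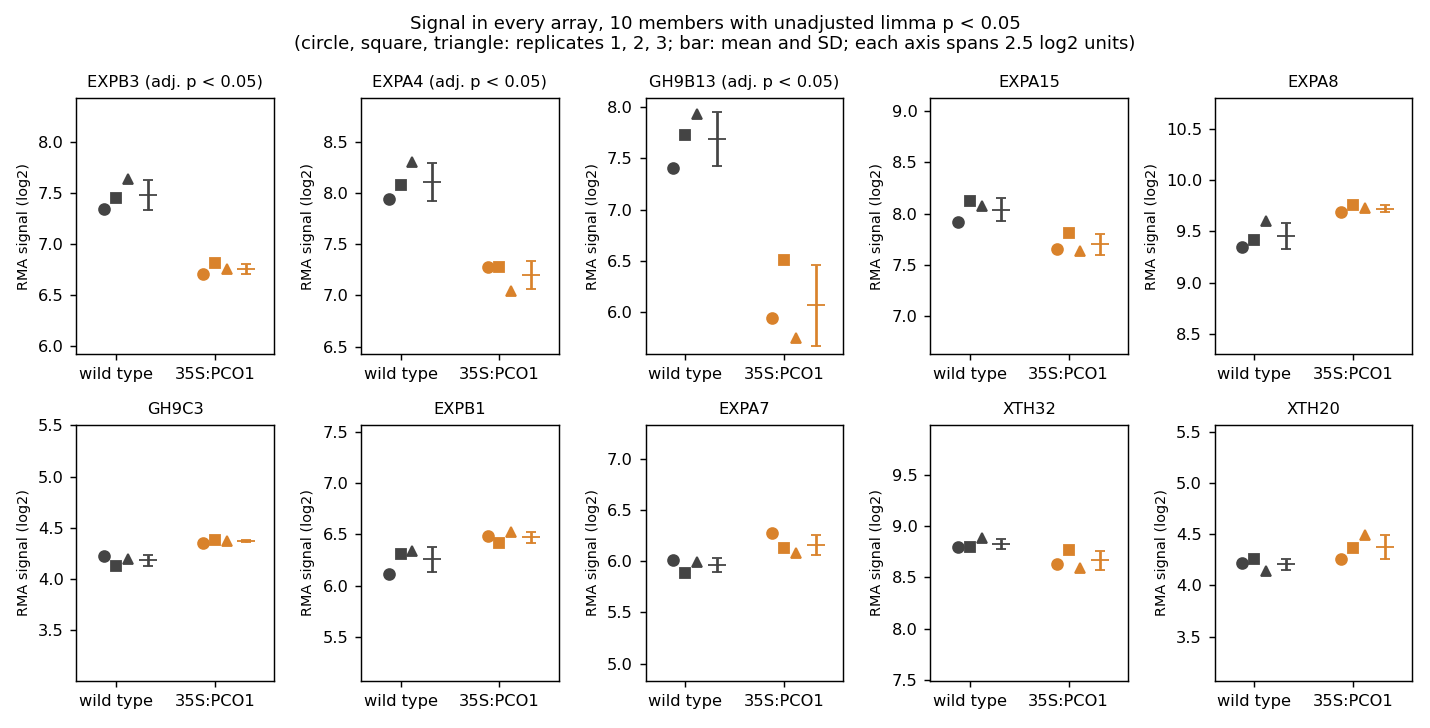
The log2 RMA signal (y axis) of the 10 members with an unadjusted limma p under 0.05 in each wild-type array (grey) and each 35S:PCO1 array (orange); circles, squares and triangles are replicates 1, 2 and 3, and bars give the mean and SD. The groups do not overlap in any of the 10 panels, and the gap is widest for GH9B13 (0.90), EXPA4 (0.67) and EXPB3 (0.53).

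Beyond these 3 genes, 7 members had an unadjusted p under 0.05 without passing over all probe sets, and 5 of the 7 lay above 0. In all, 10 members (20%) had such a p, beside 13.4% of all tested probe sets. The groups did not overlap for 11 members (22%), 6 higher and 5 lower, beside 18.4% of probe sets (9.07% higher and 9.31% lower). An exact permutation test of a single gene cannot give a p below 0.1 with 3 arrays against 3.

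Among the alpha-expansins, 1 of 10 passed as lower, 0 passed as higher and 9 did not pass. EXPA15 (AT2G03090) came nearest, with 7.92, 8.12 and 8.08 in wild type and 7.65, 7.81 and 7.63 in 35S:PCO1. Its groups did not overlap, but the gap was only 0.10 (difference -0.34, SE 0.07, limma adjusted p = 0.0789). It passed without wild-type replicate 1 (-0.40, limma adjusted p = 0.0240), but not when any other array was left out (limma adjusted p from 0.0736 to 0.347).

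EXPA8 (AT2G40610) had values on the other side of 0. Its signal was 9.35, 9.41 and 9.60 in wild type and 9.69, 9.76 and 9.72 in 35S:PCO1, with every 35S:PCO1 array above every wild-type array. The difference of 0.27 (SE 0.07) did not pass (limma adjusted p = 0.139). It passed without wild-type replicate 3 (0.34, limma adjusted p = 0.0451), but not when any other array was left out (limma adjusted p from 0.178 to 0.432).

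EXPA7 (AT1G12560) and EXPA18 (AT1G62980) are known as root hair expansins. EXPA7 was at 6.01, 5.89 and 5.99 in wild type and 6.27, 6.13 and 6.08 in 35S:PCO1, a difference of 0.19 (SE 0.07, limma adjusted p = 0.257). EXPA18, named after its values were seen, differed by 0.03 (limma adjusted p = 0.854), with overlapping groups. The root marker PYK10, as given above, differed in the other direction, and the part of root tissue was not tested.

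The other alpha-expansins (EXPA9, EXPA16, EXPA20, EXPA21 and EXPA24) lay between -0.01 and 0.08, with groups that overlapped. EXPA16, at 3.92 to 4.17 over the 6 arrays, was the dimmest. EXPA24 was the most variable alpha-expansin in wild type, where it was at 4.27, 4.54 and 4.67, so its difference of 0.04 had an interval from -0.18 to 0.26.

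Of the 4 beta-expansins, EXPB3 fell and 3 did not pass. EXPB1 (AT2G20750) was at 6.12, 6.31 and 6.34 in wild type and 6.49, 6.42 and 6.52 in 35S:PCO1, a difference of 0.22 (SE 0.07, limma adjusted p = 0.225). Every 35S:PCO1 array was above every wild-type array, the reverse of EXPB3. EXPB5, named after its values were seen, had groups that did not overlap either, with a difference of 0.13 (limma adjusted p = 0.383), while EXPB2 overlapped.

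Of the 4 expansin-like genes, relatives of expansins for which no loosening activity has been shown, EXLA1, EXLA2 and EXLB1 varied more among the wild-type arrays than among those of 35S:PCO1. EXLA1 (AT3G45970) was at 6.26, 7.03 and 7.58 among the wild-type arrays (replicates 1, 2 and 3) and at 6.81, 6.60 and 6.87 among those of 35S:PCO1. The 35S:PCO1 arrays thus lay inside the wild-type range of 1.32, and the wild-type SD of 0.66 exceeded that of 99.9% of tested probe sets. The difference of -0.20 had an interval from -0.78 to 0.39, which leaves a fall or a rise possible, and leaving out wild-type replicate 3 turned it to 0.11, while leaving out replicate 1 gave -0.55.

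EXLB1 (AT4G17030) was at 6.98, 7.41 and 7.83 in wild type and 7.16, 6.95 and 7.16 in 35S:PCO1 (-0.32, SE 0.17, limma adjusted p = 0.479). EXLA2 was at 5.03, 5.18 and 5.52 in wild type and 5.07, 5.17 and 5.05 in 35S:PCO1, and was named after its values were seen. In all 3 of these genes wild-type replicate 3 stood highest. EXLA3, next to EXLA1 in the gene order of its chromosome, had signals of 3.36 to 3.53, inside the range of the bacterial dap and lys control probe sets (3.07 to 3.82), used here as a floor for real signal. The wild-type SD was above the 35S:PCO1 SD in all 8 beta-expansin and expansin-like genes, in 6 of 10 alpha-expansins, 5 of 9 XTH, 7 of 15 GH9 and 4 of 8 CSL genes. Over all members this was 30 of 50 (60%), close to the 56.8% of tested probe sets.

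**Figure D3:**
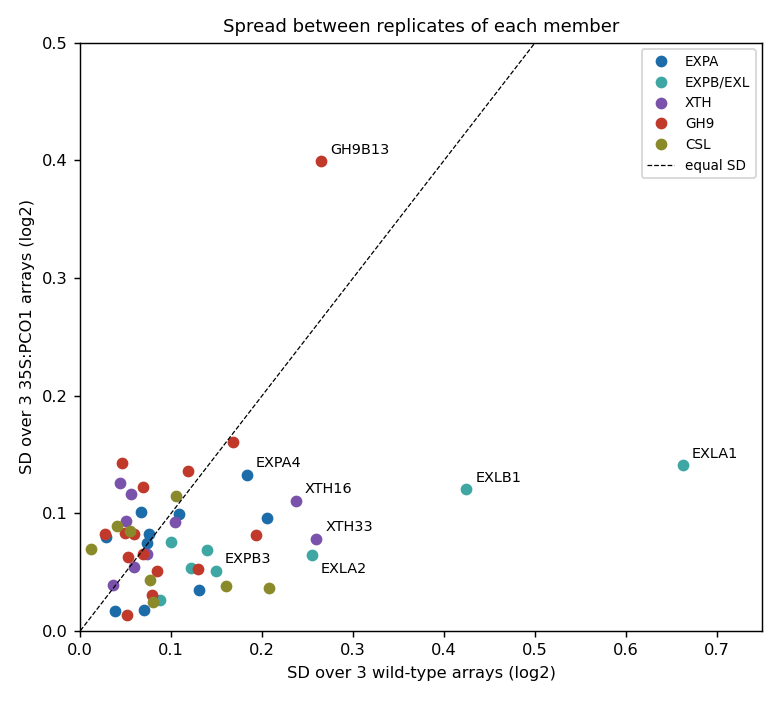
Each point is 1 of the 50 members, with its SD over the 3 wild-type arrays on the x axis and over the 3 35S:PCO1 arrays on the y axis (log2); the dashed line marks equal SDs. EXLA1 (0.66 and 0.14) and EXLB1 (0.42 and 0.12) lie far to the right, while GH9B13 (0.27 and 0.40) lies far above the other members.

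None of the 9 XTH genes passed, and their differences ran from -0.21 to 0.17 with a median of 0.0038. XTH32 (AT2G36870) was at 8.80, 8.80 and 8.88 in wild type and 8.63, 8.77 and 8.59 in 35S:PCO1 (-0.16, SE 0.06, limma adjusted p = 0.319). XTH20 (AT5G48070) was at 4.22, 4.25 and 4.14 in wild type and 4.26, 4.37 and 4.49 in 35S:PCO1 (0.17, SE 0.07, limma adjusted p = 0.334). Their groups did not overlap, but the nearest arrays were only 0.023 apart for XTH32 and 0.0054 for XTH20.

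XTH33 (AT1G10550) had the most negative difference of the family, -0.21 (SE 0.11, limma adjusted p = 0.472). It was at 5.57, 5.86 and 6.08 in wild type and 5.71, 5.59 and 5.56 in 35S:PCO1, so wild-type replicate 1 lay among the 35S:PCO1 arrays. XTH16, named after its values were seen, had a like spread in wild type, at 7.27, 7.55 and 7.74. XTH18, at 3.60 to 3.72, lay within the floor range. Its neighbour in the gene order, XTH19, differed by -0.12 (limma adjusted p = 0.517) and XTH29 by 0.14 (limma adjusted p = 0.385), both named after their values were seen. XTH21 and XTH26 lay at 0.09 and 0.0038. No 95% interval of an XTH gene reached beyond -0.47 or 0.32.

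Of the 15 GH9 genes, GH9B13 passed as lower, 0 passed as higher and 14 did not pass. GH9C3 (AT4G11050), of the class with a carbohydrate-binding module, was at 4.23, 4.13 and 4.19 in wild type and 4.36, 4.38 and 4.38 in 35S:PCO1. Its groups were 0.13 apart, and the difference of 0.19 (SE 0.05) did not pass (limma adjusted p = 0.163). GH9C2, of the same class, was at 9.78, 9.68 and 9.55 in wild type and 9.52, 9.72 and 9.47 in 35S:PCO1, and its groups overlapped (-0.10, limma adjusted p = 0.669).

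After GH9B13, the most negative difference in the family was that of GH9B8, named after its values were seen. It was at 7.29, 7.07 and 6.96 in wild type and 6.92, 7.04 and 6.72 in 35S:PCO1 (-0.22, SE 0.10, limma adjusted p = 0.399), and among the wild-type arrays replicate 1 was highest. Class A, that of KORRIGAN, a membrane-bound endoglucanase needed for cellulose synthesis, was represented by GH9A3 and GH9A4, at 0.06 and 0.04. GH9B11, at 3.40 to 3.55, lay within the floor range. GH9B16, GH9B17 and GH9B18 lie side by side in the gene order, as do GH9B11 and GH9B12, and these 5 lay between -0.01 and 0.08. GH9B5, GH9B6, GH9B7 and GH9C1 lay between -0.08 and 0.01. The intervals of the 14 genes lay between -0.44 and 0.31. A signal fall of the size seen for GH9B13 is outside each of them. For genes in or near the floor range, such as GH9B11, this does not show that the transcript held. Of the 15 GH9 genes 8 had a mean signal under 5.

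The differences of the 8 CSL genes ran from -0.11 to 0.0033, and none passed or had an unadjusted p under 0.05. CSLC04 (AT3G28180), a glucan synthase of the xyloglucan backbone, was at 9.23, 9.36 and 9.55 in wild type and 9.41, 9.38 and 9.34 in 35S:PCO1 (0.00081, limma adjusted p = 0.998). ATCSLC08, of the same subfamily, was at 6.46, 6.41 and 6.49 in wild type and 6.36, 6.42 and 6.24 in 35S:PCO1 (-0.11, limma adjusted p = 0.489). CSLA03, of the mannan synthase subfamily, was the most variable CSL gene among wild-type arrays, at 6.99, 7.22 and 7.41, with 7.19, 7.25 and 7.18 in 35S:PCO1. CSLA01, at 4.76 to 4.91, differed by -0.02. CSLC5, CSLC6, CSLC12 and CSLD2, the last known from root hair growth, lay between -0.05 and -0.01. All 8 intervals lay within -0.249 and 0.214.

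**Figure D4:**
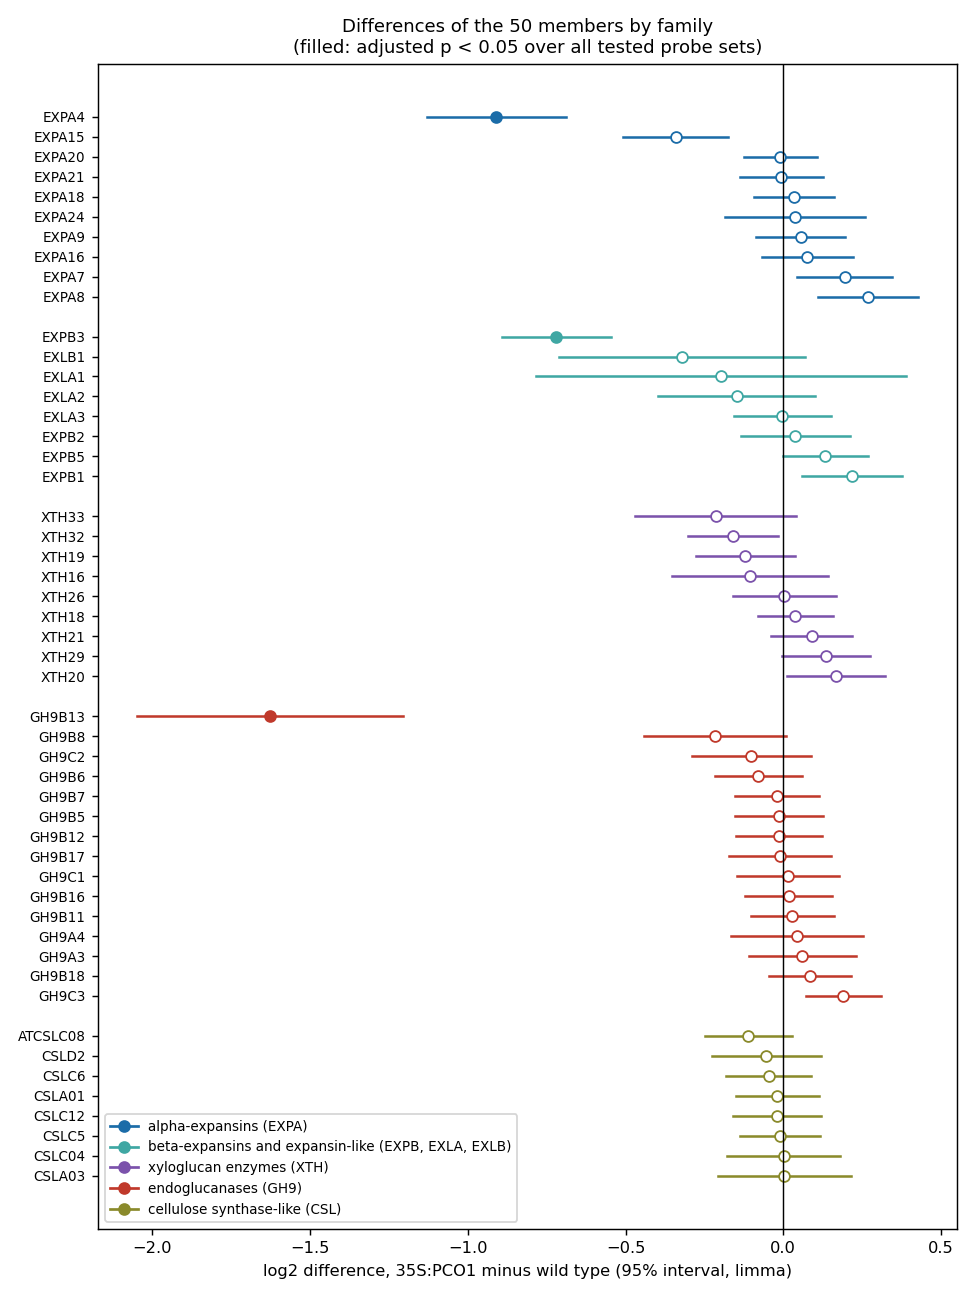
The log2 difference of 35S:PCO1 minus wild type (x axis, points) with its 95% limma interval (lines) for each of the 50 members, grouped and coloured by family; filled points passed at an adjusted p under 0.05. The 3 filled points are EXPA4, EXPB3 and GH9B13, and the 8 CSL intervals all span 0.

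Of the 47 members that did not pass, 44 had a 95% interval inside -0.5 to 0.5. The other 3 were EXPA15, EXLA1 and EXLB1. Among the 50 members, 23 had a mean signal under 5 (46%, beside 33.4% of tested probe sets), and 3 lay within the floor range. A fall would be hard to see in these 3, EXLA3, XTH18 and GH9B11. The same holds for members just above that range, such as XTH19 (mean 3.91) and XTH21 (mean 3.95). A narrow interval in such dim members does not show that the transcript was unchanged.

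**Figure D5:**
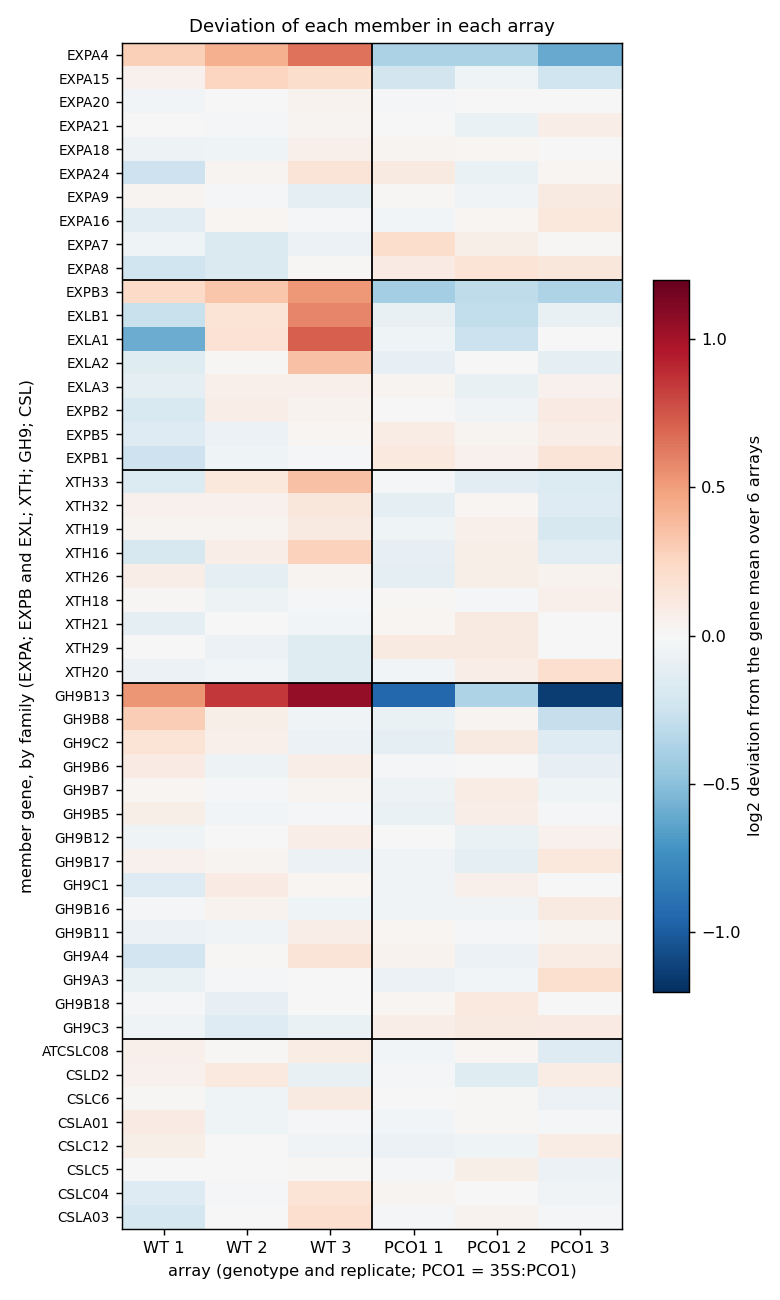
Each row is 1 of the 50 members and each column 1 array; colour is the log2 deviation from the gene's mean over the 6 arrays, and black lines part families and genotypes. EXPA4, EXPB3 and GH9B13 are red in all 3 wild-type columns and blue in all 3 35S:PCO1 columns, while EXLA1 and EXLB1 differ mainly among the wild-type columns.

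Other wall genes were taken from fixed lists of cellulose synthesis partners, xyloglucan synthesis, secondary wall and wall sensing genes, and none of the 7 measured passed. Of 8 cellulose synthesis partners written 3 were measured. COB (COBRA, which orients cellulose deposition) differed by 0.01, and CC1 and CC2 (companions of cellulose synthase) by 0.04 and -0.09 (limma adjusted p from 0.651 to 0.966). Of 12 secondary wall genes 2 were measured, the xylan synthesis genes IRX10 (0.07) and IRX15 (0.05). Of 4 genes of wall acidification and sensing 2 were measured, the receptor kinase genes FER (0.01) and THE1 (0.03). None of 11 genes of xyloglucan synthesis and trimming was measured by a probe set paired with it alone, nor was a xylem marker. Genes of these lists not counted as measured may still be on the array, among the 8730 probe sets for which the annotation names no gene.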

How the data were processed

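Total RNA of 6 samples was hybridised to Affymetrix arrays. The deposited log2 signals, a single value for every probe set on every array, are RMA output, per the submitters' processing notes, without a version. RMA as a method corrects background, quantile-normalizes arrays and summarises over probes. There is no detection call, and signals of different probe sets are not comparable as transcript levels.

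Of 22810 probe sets 64 controls were left out. Of the other 22746, 13513 had 1 gene in GEO's platform annotation, 503 several and 8730 none; all 50 members matched the RefSeq gene table of TAIR10.1, used only for names, loci and gene order. No coordinates or sequences are printed, and promoters and proteins were not used here. The 2 groups were tested in limma 3.58.1 (lmFit, eBayes, prior degrees of freedom 5.35; R 4.3.3), two-sided; p-values were adjusted by Benjamini-Hochberg across the whole table, with a threshold of 0.05. Precision is limited by the number of arrays, and members had a median SE of 0.0685. The procedure was tested on simulated data.

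The members, lists and tests were chosen with earlier results of these data known. Named were members past the threshold or with an unadjusted p under 0.05, and in each family those with the highest and lowest mean, the most positive and negative difference and the largest wild-type SD; others are said to be named after their values were seen or stand in ranges. Alternatives were dropping the dimmest 40% of probe sets, 3 other scalings (cyclic loess, quantile, median centring), array weights, a trended robust prior, no moderation (ordinary t statistic), a block for replicate number, an adjusted p under 0.1, and leaving out each array. Averaging the probe sets of a gene was not run, because each member has 1.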

Additional observations from a re-analysis of the deposited data

How the results depend on the processing

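The 3 calls (EXPA4, EXPB3 and GH9B13) were kept under the filter on dim probe sets, the 3 scalings, the trended robust prior and the replicate block. Array weights (4.55 for wild-type replicate 2, 0.434 for replicate 3) let 8 members pass (4 higher, 4 lower; EXPA15, EXPA7, EXPA8, EXPB1 and GH9C3 in addition) and 2216 of all probe sets (965 higher, 1251 lower). With the ordinary t statistic 0 members and 0 probe sets passed (8 and 2472 at an unadjusted p under 0.05), and adjusted p for the 3 genes was 0.255 to 0.292. At an adjusted p under 0.1, 4 members and 426 probe sets passed. Leaving out 1 array gave 0 to 4 members, and 5 to 489 probe sets beside 191: 489 when wild-type replicate 1 was dropped, 105 for 35S:PCO1 replicate 2, and 5 for wild-type replicate 2 and for 35S:PCO1 replicates 1 and 3. Without the dimmest 40% the members' median became -0.054, with fewer members, and its sign was not stable (0.011 with median centring). The cause of the other shifts was not tested. With the replicate number as a block 3 members and 228 probe sets passed; the deviations of same-numbered arrays were not related (r -0.06, -0.08 and -0.02 across probe sets).

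Gene by gene, the alternatives were run only for the genes of the naming rule, the markers and EXLA2, EXPB5, EXPA18, XTH16, XTH19, XTH29 and GH9B8, so other members near 0 may also change sign. Among these genes, those that changed sign without passing were EXLA3 with median centring (0.016), which adds one constant to every difference, CSLC04 with quantile (-0.011) and cyclic loess (-0.0053) normalization, COB likewise (-0.00089 and -0.0053), and with array weights CSLA01 (0.024), CSLA03 (-0.0093), IRX10 (-0.0048) and FER (-0.014). With 1 array left out, the ranges among these genes that crossed 0 were -0.075 to 0.12 for EXPA24, -0.060 to 0.040 for EXLA3, -0.55 to 0.11 for EXLA1, -0.00072 to 0.073 for GH9B11, -0.075 to 0.085 for CSLC04, -0.052 to 0.025 for CSLA01, -0.10 to 0.10 for CSLA03, -0.041 to 0.078 for COB, -0.0038 to 0.12 for IRX15, -0.044 to 0.10 for THE1, -0.015 to 0.046 for FER and -0.23 to 0.0060 for XTH16.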

Other observations

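Probe sets shared by 2 genes of these families were outside the members, and 4 such probe sets were on the array. That of EXP26 and EXPA22 was at 3.75, 3.64 and 3.73 in wild type and 3.56, 3.56 and 3.57 in 35S:PCO1 (-0.14, SE 0.05, limma adjusted p = 0.300), with groups that did not overlap but signals no brighter than the bacterial dap and lys controls reach. Those of EXPA25 and EXPA23, of GH9B15 and GH9B14, and of GH9B10 and GH9B9 differed by 0.0095, 0.05 and 0.01, and none passed (limma adjusted p from 0.796 to 0.980).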
